A study of Rattus norvegicus with 9 samples.

Results

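The genes described here are 10 of those for enzymes that make the choline, ethanolamine and serine head groups of phospholipids in rat liver. They were chosen by name: Chka, Chkb, Pcyt1a, Pcyt2, Chpt1, Cept1, Pemt, Ptdss1, Ptdss2 and Pisd. They are 10 of the 17156 gene names in the deposited tables, and all 10 were measured in all 9 livers and passed the filter on low counts in all 3 comparisons.

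Phosphatidylcholine and phosphatidylethanolamine are the main membrane phospholipids of the hepatocyte, and both are built by the Kennedy pathway, in which a kinase phosphorylates the head group, a cytidylyl transferase activates it with CTP and a phosphotransferase joins it to diacylglycerol. The liver has a further route to phosphatidylcholine, the stepwise methylation of phosphatidylethanolamine by Pemt. Phosphatidylserine is made from phosphatidylcholine or phosphatidylethanolamine by exchange of the head group, and the mitochondrial decarboxylase Pisd turns it into phosphatidylethanolamine.

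Liver RNA was sequenced from male SD rats in 3 groups of 3. The normal control group received saline. The model group was given carbon tetrachloride (CCl4), 2 ml/kg of a 50% solution in oil, for 9 weeks, which injures the liver and leads to fibrosis. The TA group had the same CCl4 course and then tormentic acid, a plant triterpene, for 6 weeks. CCl4 exposure is thus shared by the model and TA groups, whose livers the labels describe as being at the hepatitis stage. The CCl4 amount and the times come from the study's methods. TA was dosed there at more than 1 level, and neither the methods nor the labels state which level these libraries had, or whether the model rats had vehicle during the TA weeks. The question put to these genes is whether CCl4 moved them (Model VS Normal), whether TA moved them again (TA VS Model), and how TA livers stood against normal ones (TA VS Normal). The comparisons share groups, so their values are given side by side.

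The libraries held 13156735 to 18090405 counts. The library of the first model rat stood apart from the rest. Its scaling factor by the trimmed mean of M-values (TMM) was 1.72, against 0.819 to 1.17 in the other livers, and its 50 most abundant genes held 27.9% of its counts, against 40.4 to 45.7%. The 7 hepatocyte markers listed, all detected, summed to 25779 CPM (counts scaled to a common library size) in that library, to 73351 and 91937 in the other model livers, to 109164 to 138534 in normal livers and to 85884 to 147172 in TA livers. Alb held most of each sum, for example 90768 of 129943 CPM in the first normal rat. Alb, Ttr, Hnf4a, Serpina1 and Tat were lower in every model liver than in every normal liver, while Apoa1 and Cps1 overlapped. The 7 of 8 stellate cell markers in the tables summed to 199 to 298 CPM in normal livers, 1150 to 11864 in model livers, with the first rat highest, and 649 to 1145 in TA livers. Col1a1 and Col3a1 held most of each sum. Lrat overlapped between all groups, while the other stellate markers were higher in every model liver than in every normal liver. The 5 cholangiocyte markers summed to 16.3 to 24.8 CPM in normal livers, 89.0 to 148 in model livers and 30.3 to 37.2 in TA livers. Lymphocyte markers summed to 26.7 to 41.3 CPM in normal, 55.2 to 72.4 in model and 32.1 to 44.0 in TA livers. Macrophage and endothelial marker sums overlapped between all groups, but their members moved in both directions. The macrophage markers Clec4f and Marco and the endothelial marker Kdr were lower in every model liver than in every normal liver. Higher in every model liver were the macrophage markers Cd68 and Adgre1 and the endothelial marker Vwf. Vsig4, Csf1r, Cd163, Stab2 and Lyve1 overlapped between model and normal livers. The part of these cell type differences in the results on single genes was not tested, and in bulk tissue fewer cells of a type and less RNA per cell cannot be told apart.

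RefSeq promoter windows, 250 bases before to 50 after the gene start on build GRCr8, were found for 9 of the 10 genes, with 10 windows in all since Pisd has a pair. Ptdss1 was not among them. The windows below belong to Pcyt2, Pemt, Chka and Chpt1, whose log2 differences between groups were the largest of the 10 genes in size, and to Pcyt1a, whose level moved little. Each is written 5′ to 3′ on the gene's strand, with capitals where a motif was found on either strand. The motifs searched were the GC box, spelled GGGCGG, the CCAAT box, the E-box, spelled CACGTG, and a form of the sterol regulatory element, spelled TCACNCCAC. No matches to these motifs overlapped each other in the 10 windows. Pcyt2 lies on the minus strand at chr10:106394419-106394718, Pemt on the minus strand at chr10:45341898-45342197, Chka on the plus strand at chr1:210505865-210506164, Chpt1 on the minus strand at chr7:24802472-24802771 and Pcyt1a on the minus strand at chr11:81862348-81862647.
Pcyt2: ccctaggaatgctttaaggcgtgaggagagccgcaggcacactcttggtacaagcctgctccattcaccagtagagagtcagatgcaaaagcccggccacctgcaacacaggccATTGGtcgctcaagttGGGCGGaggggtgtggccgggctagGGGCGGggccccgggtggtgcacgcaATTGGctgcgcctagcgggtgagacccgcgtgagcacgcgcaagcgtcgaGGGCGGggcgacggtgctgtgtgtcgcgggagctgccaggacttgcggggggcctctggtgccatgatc
Pemt: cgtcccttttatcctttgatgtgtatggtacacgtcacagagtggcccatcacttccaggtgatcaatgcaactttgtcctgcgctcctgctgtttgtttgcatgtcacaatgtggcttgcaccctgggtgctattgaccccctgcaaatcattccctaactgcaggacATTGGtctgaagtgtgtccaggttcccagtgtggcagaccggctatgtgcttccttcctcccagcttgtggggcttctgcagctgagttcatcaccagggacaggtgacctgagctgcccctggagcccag
Chka: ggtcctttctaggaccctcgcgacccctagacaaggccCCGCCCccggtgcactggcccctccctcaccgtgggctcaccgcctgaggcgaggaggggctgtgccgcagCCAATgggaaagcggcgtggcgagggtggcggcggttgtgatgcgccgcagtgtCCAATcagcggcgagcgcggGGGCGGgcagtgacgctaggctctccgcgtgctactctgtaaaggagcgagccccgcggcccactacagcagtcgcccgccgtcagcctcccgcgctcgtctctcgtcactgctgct
Chpt1: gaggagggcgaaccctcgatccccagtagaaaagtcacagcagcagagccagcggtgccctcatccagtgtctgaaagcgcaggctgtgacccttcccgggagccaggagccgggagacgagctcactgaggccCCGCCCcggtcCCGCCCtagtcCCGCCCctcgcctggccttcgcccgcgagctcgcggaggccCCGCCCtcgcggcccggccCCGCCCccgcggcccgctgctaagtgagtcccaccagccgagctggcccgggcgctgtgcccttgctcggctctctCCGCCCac
Pcyt1a: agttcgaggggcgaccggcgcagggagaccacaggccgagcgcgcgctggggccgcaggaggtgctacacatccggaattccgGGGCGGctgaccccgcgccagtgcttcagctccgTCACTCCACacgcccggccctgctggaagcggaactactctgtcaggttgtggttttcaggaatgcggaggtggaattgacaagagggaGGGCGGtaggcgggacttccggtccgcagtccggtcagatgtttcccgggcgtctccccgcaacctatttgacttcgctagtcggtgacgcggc

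The GC box letters stood in 9 of the 10 windows, Pemt being without one, and in 33.1% of the 33469 windows of the same length in the RefSeq table. The CCAAT letters stood in 6 of the 10 windows and in 37.5% of all windows. The sterol regulatory element letters stood in the Pcyt1a window alone among the 10, and in 1.12% of all windows, while CACGTG was in 0 of the 10 and in 6.42% of all. Guanine and cytosine made up 54.3% of the Pemt window, 66.0% of the Pcyt2 window, 70.7% of the Chka window and 73.3% of the Chpt1 window. These matches describe letters and not binding.

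Per length of transcript, the 10 genes fell into abundant and scarce members. In FPKM, the deposited measure scaled for transcript length and library size, the methyltransferase gene Pemt had 308 ± 33.2 (mean ± SD, n = 3) and the CTP:phosphoethanolamine cytidylyl transferase gene Pcyt2 had 253 ± 61.6 in the normal control group. Together they carried 42.0% and 34.4% of the summed FPKM of the 10 genes. Chpt1 (51.5 ± 11.8), Chka (36.6 ± 6.30), Cept1 (32.1 ± 4.67) and Chkb (28.7 ± 7.90) came next in FPKM. Ptdss2 (8.10 ± 1.31), Pcyt1a (6.38 ± 2.43), Pisd (4.65 ± 0.923) and Ptdss1 (4.41 ± 1.36) were the scarce members. In normal livers the second and the third gene in this order did not overlap, nor did the sixth and the seventh, whereas every other pair of neighbours overlapped.

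By group means, Pemt and Pcyt2 kept the first and the second place in FPKM in both CCl4 groups. They had 191 ± 107 and 114 ± 48.7 in the model group and 287 ± 36.6 and 211 ± 99.4 in the TA group. The range of Pcyt2 overlapped that of Pemt in both groups. Unlike in normal livers, it also overlapped that of the third gene, Chka. The sixth and the seventh gene did not overlap in either group, and by group means the same 4 scarce genes stayed below the same 6 others. In single livers there was 1 exception, the first model rat, in which Chka (15.1 FPKM) was below Pcyt1a (15.9) and Ptdss1 (16.2). Chka took the fourth place in the normal order and the third place in the model and TA orders, with 42.9 ± 33.2 and 115 ± 95.4 FPKM, but its range overlapped that of Chpt1 in each group. From group means, and so without a spread, the share of Chka in the summed FPKM of the 10 genes was 4.99% in normal, 8.76% in model and 14.4% in TA livers. The share of Pcyt2 was 34.4%, 23.3% and 26.5%. Chka itself ran from 31.6 to 43.6 FPKM in normal, 15.1 to 79.7 in model and 55.1 to 225 in TA livers.

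Between groups, the largest log2 differences were in Pcyt2, Pemt, Chpt1 and Chka, and 0 of the 10 genes had an adjusted p under 0.05 in edgeR's quasi-likelihood test in any comparison. In TMM-scaled CPM, Pcyt2 and Pemt were lower in every model liver than in every normal liver. In FPKM this held for Pcyt2 but not for Pemt. Chka was higher in every TA liver than in every normal liver. In Model VS Normal, 0 of the 10 genes had a Benjamini-Hochberg adjusted p under 0.05 in edgeR's quasi-likelihood test, where 7.87% of 12730 tested genes did. At an unadjusted p under 0.05, 1 gene (Pcyt2) was lower in the model group, beside 10.2% of all tested genes, and 0 were higher, beside 18.7%. After adjustment DESeq2 called 1 of the 10 (Pcyt2), beside 20.9% of all genes with an adjusted p, and limma voom with sample weights called 3 (Chpt1, Pcyt2 and Pemt), beside 27%, all lower. At an unadjusted p under 0.05 DESeq2 had 2 (Pcyt2 and Pemt), beside 33.3%, and limma voom the same 3, beside 40.7%. The groups did not overlap for 3 of the 10 (Ptdss2, Pemt and Pcyt2, all lower), beside 38.2% of all tested genes.

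TA was then set against the model group. There, 0 of the 10 genes had an adjusted p under 0.05 in edgeR, DESeq2 or limma voom, and the share of all 12781 tested genes called was 0% in edgeR, 4.25% in DESeq2 and 1.32% in limma voom. At an unadjusted p under 0.05, edgeR had 1 gene higher in TA livers (Ptdss2), beside 4.17% of all tested genes, and 0 lower, beside 11.5%. DESeq2 had 4 of the 10 at that unadjusted threshold, beside 19.6% of all genes, and limma voom 3, beside 27.2%. The groups did not overlap for 2 of the 10 (Ptdss2 and Pcyt2, both higher in TA), beside 23.3% of all tested genes. Against the normal group, 0 of the 10 TA values had an adjusted p under 0.05 in edgeR, DESeq2 or limma voom, beside 0.263% of 12179 tested genes in edgeR, 2.96% in DESeq2 and 1.03% in limma voom. At an unadjusted p under 0.05, edgeR had 1 gene higher (Chka), beside 5.99%, and 0 lower, beside 3.44%, while DESeq2 had 1 (Chka), beside 10.5%, and limma voom had 2 (Chpt1 and Pcyt2), beside 15%. The groups did not overlap for 2 of the 10, Chka higher and Pemt lower, beside 15.2%.

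Over the 10 genes the median log2 fold change was -0.34, 0.50 and 0.13 in the 3 comparisons in the order above, and over all tested genes it was 0.02, -0.00 and -0.01. Without the first model rat the first pair of these medians was -0.12 and 0.42. Where library totals replaced TMM, the median of all tested genes was 0.65, -0.48 and 0.18 and that of the 10 genes was 0.18, 0.10 and 0.32, so the first median of the 10 turned positive while staying below that of all genes. Changes are therefore given relative to the bulk of genes.

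**Figure D1:**
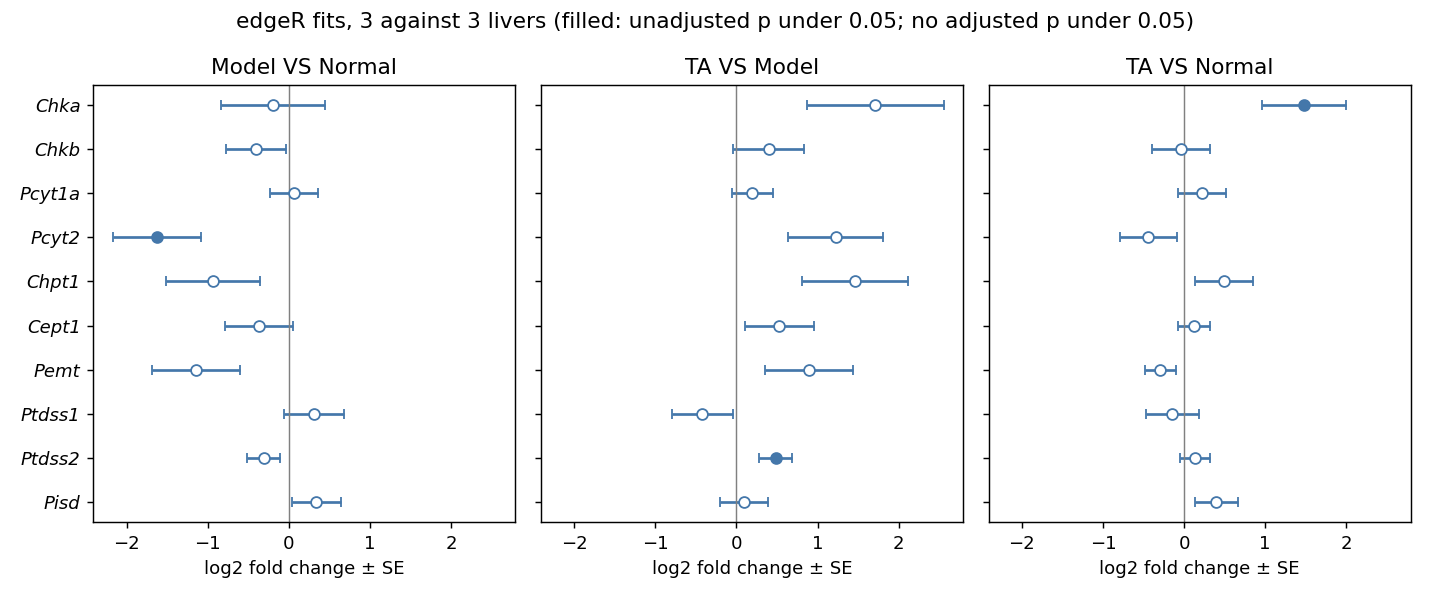
Log2 fold change of each gene (x axis) with its standard error (bars) in each of the 3 comparisons, from edgeR fits of 3 against 3 livers; filled points have an unadjusted p under 0.05. Pcyt2 lies farthest to the left in Model VS Normal at -1.63, and Chka lies farthest to the right in TA VS Model and TA VS Normal at 1.71 and 1.48.

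The choline kinases catalyse the first step, the phosphorylation of choline. Chka had 97.4, 132 and 109 CPM (TMM-scaled over the 9 livers) in the first, the second and the third normal rat, 22.7, 75.2 and 196 in model livers and 144, 187 and 635 in TA livers. The model livers ran from below to above the normal range, and every TA liver was above every normal liver, with the third TA rat far above the others. In TA VS Normal, Chka was 2.79-fold higher, a log2 fold change of 1.48 ± 0.52 (SE), with an unadjusted p of 0.0201 and an adjusted p of 0.383. Without the third TA rat the log2 fold change was 0.53, with an adjusted p of 0.347. For Model VS Normal the log2 fold change of Chka was -0.19 ± 0.64, with an adjusted p of 0.868, -1.20 without the third model rat and 0.25 without the first. For TA VS Model it was 1.71 ± 0.84 with an adjusted p of 0.354, 0.76 without the third TA rat and 2.71 without the third model rat.

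Chkb had 47.3, 48.7 and 77.6 CPM in normal livers, 23.7, 48.6 and 58.0 in model livers and 41.5, 40.3 and 90.8 in TA livers. All 3 groups overlapped, and in each group the third rat was the highest. The log2 fold changes of Chkb were -0.40 ± 0.37, 0.40 ± 0.44 and -0.04 ± 0.36 in the 3 comparisons, with adjusted p-values of 0.496, 0.658 and 0.993. The first and the third of these changed sign with library totals, to 0.13 and 0.15, and the second was -0.09 without the third TA rat. Without the first model rat the first was -0.12, and without the third model rat it was -0.67.

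The ratio of the kinases within a liver does not depend on how libraries are scaled. Chka had 2.06, 2.71 and 1.40 counts for each Chkb count in normal livers, 0.959, 1.55 and 3.38 in model livers and 3.47, 4.65 and 6.99 in TA livers. Every TA liver stood above every normal and every model liver in this ratio, though the lowest TA liver and the highest model liver were close. The mean log2 ratio was 0.99 ± 0.48 (SD) in normal, 0.78 ± 0.92 in model and 2.27 ± 0.51 in TA livers, and TA exceeded normal by 1.28 and model by 1.496. With 3 rats against 3, an exact two-sided permutation test cannot go below p = 0.1.

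The cytidylyl transferases make CDP-choline (Pcyt1a, the rate-limiting step of the choline branch) and CDP-ethanolamine (Pcyt2). Pcyt2 had 460, 506 and 739 CPM in normal livers, 65.1, 208 and 274 in model livers and 290, 325 and 669 in TA livers. No model liver reached the lowest normal liver, and the TA livers lay above the model livers, the gap between the lowest TA and the highest model liver being small (290 against 274). On the FPKM scale those livers overlapped, at 153 and 154. In Model VS Normal, Pcyt2 was 3.09-fold lower, a log2 fold change of -1.63 ± 0.54, with an unadjusted p of 0.0174 and an adjusted p of 0.101 in edgeR. DESeq2 gave Pcyt2 an adjusted p of 0.0120 and limma voom one of 0.0168, and over all alternatives the adjusted p ran from 0.0120 to 0.226. Without the first model rat its log2 fold change was -1.25, with an adjusted p of 0.0552. Without the third model rat it was -2.06, with an adjusted p of 0.0451.

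Between TA and model livers, Pcyt2 had a log2 fold change of 1.22 ± 0.59 and an adjusted p of 0.349, and the value was 0.75 without the third TA rat and 0.83 without the first model rat. Between TA and normal livers it had -0.44 ± 0.35 and an adjusted p of 0.830. The summed hepatocyte markers given above, mostly Alb, were also lower in every model liver than in every normal liver. Taken per 1000 CPM of those markers, an alternative chosen after the values were seen, Pcyt2 had 3.54, 3.65 and 6.77 CPM in normal livers, 2.52, 2.83 and 2.99 in model livers and 3.38, 2.21 and 7.16 in TA livers. On that scale the model livers were still all below the normal livers, by 0.68 in mean log2, and the TA livers overlapped both groups. This is a difference of means, unlike the fitted log2 fold changes above.

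Pcyt1a had 28.5, 45.9 and 23.5 CPM in normal livers, 39.6, 32.5 and 28.3 in model livers and 43.7, 43.3 and 29.6 in TA livers. The groups overlapped in every comparison. Its log2 fold changes were 0.06 ± 0.30, 0.20 ± 0.26 and 0.22 ± 0.29, with adjusted p-values of 0.910, 0.715 and 0.922, and the second was -0.32 with library totals. The first was -0.11 without the first model rat.

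Pcyt2 had 16.2, 11.04 and 31.5 counts for each Pcyt1a count in normal livers, 1.64, 6.38 and 9.69 in model livers and 6.63, 7.51 and 22.6 in TA livers. Every model liver was below every normal liver in this ratio, and TA livers overlapped both groups. The mean log2 ratio was 4.15 ± 0.76 in normal, 2.22 ± 1.34 in model and 3.38 ± 0.97 in TA livers, a difference of -1.93 for Model VS Normal and of -1.18 without the first model rat. 

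**Figure D2:**
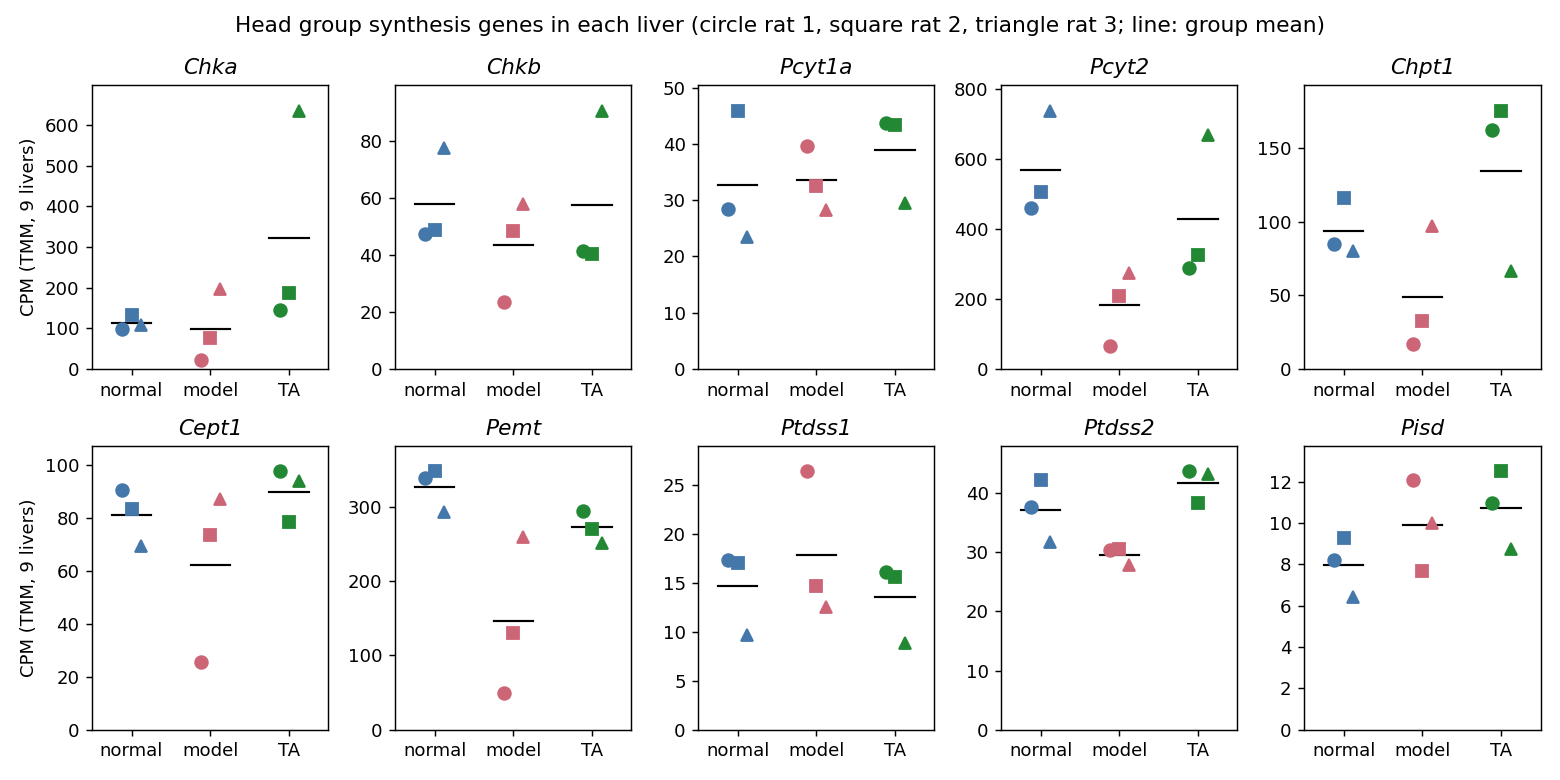
CPM of each gene (y axis, from 0) in each liver, scaled by TMM over the 9 livers, with normal in blue, model in red and TA in green; symbols give the rat number and lines the group mean of 3 rats. The model livers lie below the normal livers for Pcyt2 and Pemt, and the third TA rat stands out for Chka at 635 CPM.

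The last step of the Kennedy pathway is run by Chpt1, which makes phosphatidylcholine, and Cept1, which takes either activated head group. Chpt1 had 85.1, 116 and 80.2 CPM in normal livers, 16.6, 32.4 and 97.4 in model livers and 163, 176 and 66.3 in TA livers. The third model rat reached the normal range while the other model rats were below it, and the third TA rat was below the normal range while the other TA rats were above it. The log2 fold changes of Chpt1 were -0.93 ± 0.58, 1.46 ± 0.66 and 0.49 ± 0.36 in the 3 comparisons, with adjusted p-values of 0.317, 0.328 and 0.799. Without the third model rat the first was -1.93, with an adjusted p of 0.0165, the lowest of its alternatives, which ran to 0.537. Without the first model rat it was -0.55, with an adjusted p of 0.488. The TA VS Model value of Chpt1 was 2.45 without the third model rat, with an adjusted p of 0.0709, and 1.06 without the first, and over the alternatives its adjusted p ran from 0.0614 to 0.598. The TA VS Normal value was 0.24 without the second TA rat and 0.82 without the third.

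Cept1 had 90.6, 83.5 and 69.5 CPM in normal livers, 25.6, 73.5 and 87.5 in model livers and 97.7, 78.7 and 93.9 in TA livers. The first model rat lay far below the other livers, which ran from 69.5 to 97.7 CPM and overlapped across groups. The log2 fold changes of Cept1 were -0.37 ± 0.42, 0.53 ± 0.43 and 0.12 ± 0.19, with adjusted p-values of 0.588, 0.542 and 0.946, and the first of them was 0.12 with library totals. Without the first model rat the first of them was -0.02 and the second 0.16, and without the third model rat they were -0.71 and 0.86. Chpt1 had 0.939, 1.39 and 1.15 counts for each Cept1 count in normal livers, 0.649, 0.441 and 1.11 in model livers and 1.66, 2.23 and 0.706 in TA livers, and the groups overlapped in every comparison.

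Pemt, the methyltransferase of the endoplasmic reticulum, gives the liver phosphatidylcholine without dietary choline. It had 339, 348 and 294 CPM in normal livers, 49.6, 130 and 259 in model livers and 295, 271 and 252 in TA livers. On the TMM scale all model livers were below all normal livers, but the third model rat was within the TA range. In FPKM the third model rat (307) lay within the normal range (271 to 334), so the separation did not hold on that scale. Between model and normal livers, Pemt was 2.21-fold lower, a log2 fold change of -1.15 ± 0.54, with an unadjusted p of 0.0686 and an adjusted p of 0.205. Its adjusted p ran from 0.0232 (limma voom) to 0.371 over the alternatives, and the log2 fold change was -0.76, with an adjusted p of 0.203, once the first model rat was left out. Without the third model rat it was -1.86, with an adjusted p of 0.0342.

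Pemt had a log2 fold change of 0.89 ± 0.55 and an adjusted p of 0.433 between TA and model livers, which was 1.597 without the third model rat and 0.49 without the first. Between TA and normal livers it had -0.29 ± 0.19 and an adjusted p of 0.750. There the groups were apart when scaled on those 6 livers, but on the scale of all 9 livers the first TA rat (295) and the third normal rat (294) overlapped. The hepatocyte marker sum, mostly Alb, was lower in the model livers too. Per 1000 CPM of that sum, Pemt had 2.61, 2.51 and 2.69 CPM in normal livers. It had 1.92, 1.77 and 2.82 in model livers and 3.44, 1.84 and 2.70 in TA livers. On that scale all 3 groups overlapped, and the Model VS Normal difference was -0.29 in mean log2.

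The routes to phosphatidylcholine were compared by the ratio of Pemt to Pcyt1a. Pemt had 11.9, 7.59 and 12.5 counts for each Pcyt1a count in normal livers, 1.25, 3.998 and 9.16 in model livers and 6.75, 6.25 and 8.53 in TA livers. The first and the second model rat were below every normal rat and the third was within the normal range. The mean log2 ratio was 3.38 ± 0.40 in normal, 1.84 ± 1.44 in model and 2.83 ± 0.23 in TA livers.

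**Figure D3:**
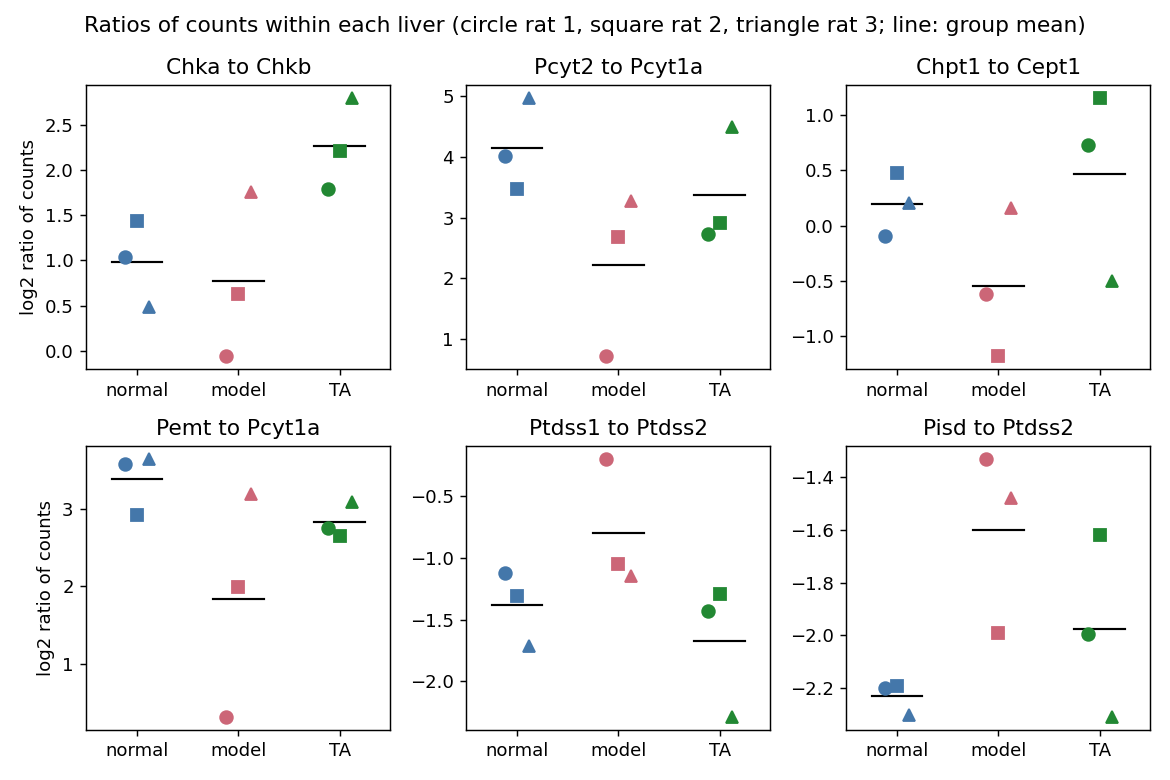
Log2 ratio of counts of enzyme pairs (y axis) within each liver, for the 3 groups of 3 rats, with lines at the group means. The Chka to Chkb ratio is higher in every TA liver than in every other liver, and the Pcyt2 to Pcyt1a ratio is lower in every model liver than in every normal liver.

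The phosphatidylserine synthases exchange head groups, Ptdss1 on phosphatidylcholine and Ptdss2 on phosphatidylethanolamine. Ptdss2 had 37.7, 42.3 and 31.8 CPM in normal livers, 30.3, 30.6 and 27.8 in model livers and 43.7, 38.4 and 43.3 in TA livers. On the TMM scale the model livers were all below the normal and the TA livers. They differed by at most 1.099-fold there, the smallest range of the 10 genes in the model group, where Chka differed by 8.63-fold. In FPKM the model livers had 13.5, 9.25 and 7.59 and overlapped the normal livers (6.75 to 9.37) and the TA livers (8.91 to 11.2). Neither the separation nor the narrow range held on that scale. The log2 fold change of Ptdss2 in TA VS Model was 0.48 ± 0.20, with an unadjusted p of 0.0445 and an adjusted p of 0.311, and with library totals it was -0.0011. For Model VS Normal it was -0.31 ± 0.21 with an adjusted p of 0.347, and 0.32 with library totals. For TA VS Normal it was 0.14 ± 0.19.

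Ptdss1 had 17.3, 17.1 and 9.70 CPM in normal livers, 26.4, 14.7 and 12.5 in model livers and 16.2, 15.6 and 8.89 in TA livers. The groups overlapped throughout, and in each group the first rat was the highest and the third the lowest. Its log2 fold changes were 0.31 ± 0.37, -0.42 ± 0.38 and -0.15 ± 0.32, with adjusted p-values of 0.597, 0.578 and 0.964, and the third of these was 0.04 with library totals. Without the first model rat the first was -0.12 and the second -0.01.

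Ptdss1 had 0.460, 0.404 and 0.305 counts for each Ptdss2 count in normal livers, 0.871, 0.482 and 0.450 in model livers and 0.370, 0.407 and 0.205 in TA livers. Every TA liver was below every model liver in this ratio, by 0.87 in mean log2, and the normal livers overlapped both groups.

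Pisd had 8.20, 9.25 and 6.44 CPM in normal livers, 12.1, 7.69 and 9.98 in model livers and 10.95, 12.5 and 8.74 in TA livers, the lowest CPM of the 10 genes. The groups overlapped in every comparison. Its log2 fold changes were 0.34 ± 0.30, 0.09 ± 0.29 and 0.40 ± 0.26, with adjusted p-values of 0.475, 0.893 and 0.764, and the second was -0.43 with library totals. The first was 0.14 without the first model rat. Ptdss1 and Ptdss2 both make the phosphatidylserine that Pisd consumes, and only the ratio to Ptdss2 was taken, so the result is limited to that pair. Pisd had 0.218, 0.219 and 0.203 counts for each Ptdss2 count in normal livers. It had 0.398, 0.252 and 0.359 in model livers and 0.251, 0.325 and 0.202 in TA livers. Every model liver exceeded every normal liver in this ratio, by 0.63 in mean log2, and TA livers overlapped both.

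In TA VS Normal the replicate numbers were taken to pair the livers, from these same counts and not from the labels. With the number as a block, 2 of the 10 genes had an unadjusted p under 0.05 in edgeR in place of 1. Of all tested genes 18.7% had one, in place of 9.43%. The 2 of the 10 were Chka, with a log2 fold change of 1.15 and an adjusted p of 0.198, and Pcyt2, with -0.51 and 0.182. The block fit called 203 (1.67%) of all tested genes after adjustment, against 32 without the block, and 0 of the 10.

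The genes around this pathway were counted from 7 lists of 47 names, of which 45 were in the tables. In Model VS Normal 39 were tested, 0 had an adjusted p under 0.05 in edgeR, and at an unadjusted p under 0.05 7 (17.9%) were higher and 10 (25.6%) lower, beside 18.7% and 10.2% of all tested genes. Their median log2 fold change was -0.68, and -0.15 with library totals. The higher ones were the choline transporter-like genes Slc44a1 (1.22), Slc44a2 (1.01) and Slc44a3 (1.88), the glycerophosphocholine phosphodiesterase Gpcpd1 (0.87), the phospholipases D Pld1 (0.82) and Pld2 (1.60), and the scramblase Plscr1 (1.66), each value being a log2 fold change. The lower ones included the ethanolamine kinase Etnk2 (-1.79), the phosphoethanolamine lyase Etnppl (-2.64) and the phosphatidate phosphatase Lpin1 (-1.77). Also lower were the phospholipase Pnpla6 (-0.62, and 0.05 with library totals), the scramblase family gene Xkr8 (-0.73), the lipid transfer gene Stard10 (-1.39), and 3 genes of choline oxidation and methyl supply, Chdh (-1.42), Aldh7a1 (-1.04) and Ahcy (-1.42).

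Etnk2, which supplies the phosphoethanolamine that Pcyt2 activates, had 403, 463 and 472 CPM in normal livers, 34.5, 132 and 217 in model livers and 259, 309 and 279 in TA livers. All model livers were below all TA livers, and all TA livers were below all normal livers. In Model VS Normal its unadjusted p was 0.0175 and its adjusted p 0.101, and in TA VS Normal its log2 fold change was -0.69 ± 0.19 with an unadjusted p of 0.00626 and an adjusted p of 0.224. Selenoi, the ethanolamine phosphotransferase, had 50.1, 55.0 and 30.8 CPM in normal livers, 6.88, 17.9 and 38.4 in model livers and 34.7, 37.6 and 34.9 in TA livers, with overlap between all groups. The other ethanolamine kinase gene, Etnk1, had a log2 fold change of 0.14 ± 0.39 in Model VS Normal, with an adjusted p of 0.834.

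Of the 9 tested genes of choline oxidation and methyl donor supply, 8 were apart from normal and lower in the model group and 7 were apart from model and higher in the TA group, beside 38.2% and 23.3% of all tested genes apart in either direction. Their median log2 fold changes were -1.14, 0.99 and 0.00 in the 3 comparisons, and -0.66, 0.66 and 0.18 with library totals. The choline dehydrogenase Chdh had 176, 150 and 163 CPM in normal livers, 26.8, 66.7 and 87.3 in model livers and 208, 176 and 107 in TA livers. No model liver reached any normal or TA liver for Chdh, whose adjusted p was 0.0736 between model and normal livers and 0.264 between TA and model livers.

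In TA VS Model 41 genes of the 7 lists were tested and 0 had an adjusted p under 0.05, and in TA VS Normal 39 and 0. For TA VS Model 5 (12.2%) were higher and 3 (7.32%) lower at an unadjusted p under 0.05, beside 4.17% and 11.5% of all tested genes. The higher ones included Etnppl (2.84), Lpin1 (2.82), Chdh (1.43) and Ahcy (1.46), and the lower ones Slc44a3 (-1.98), Pld2 (-1.09) and Plscr1 (-1.02) in log2. In TA VS Normal 2 (5.13%) were higher, the phosphatase Phospho1 (1.09) and the phosphatidylcholine transfer gene Pctp (0.62), and 3 (7.69%) were lower, among them Etnk2 (-0.69) and the sphingosine phosphate lyase Sgpl1 (-0.52), beside 5.99% and 3.44% of all tested genes. Lpin1 had 24.9, 67.9 and 16.8 CPM in normal livers, 4.06, 11.3 and 16.6 in model livers and 177, 24.0 and 25.7 in TA livers, with the first TA rat far above every other liver.

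**Figure D4:**
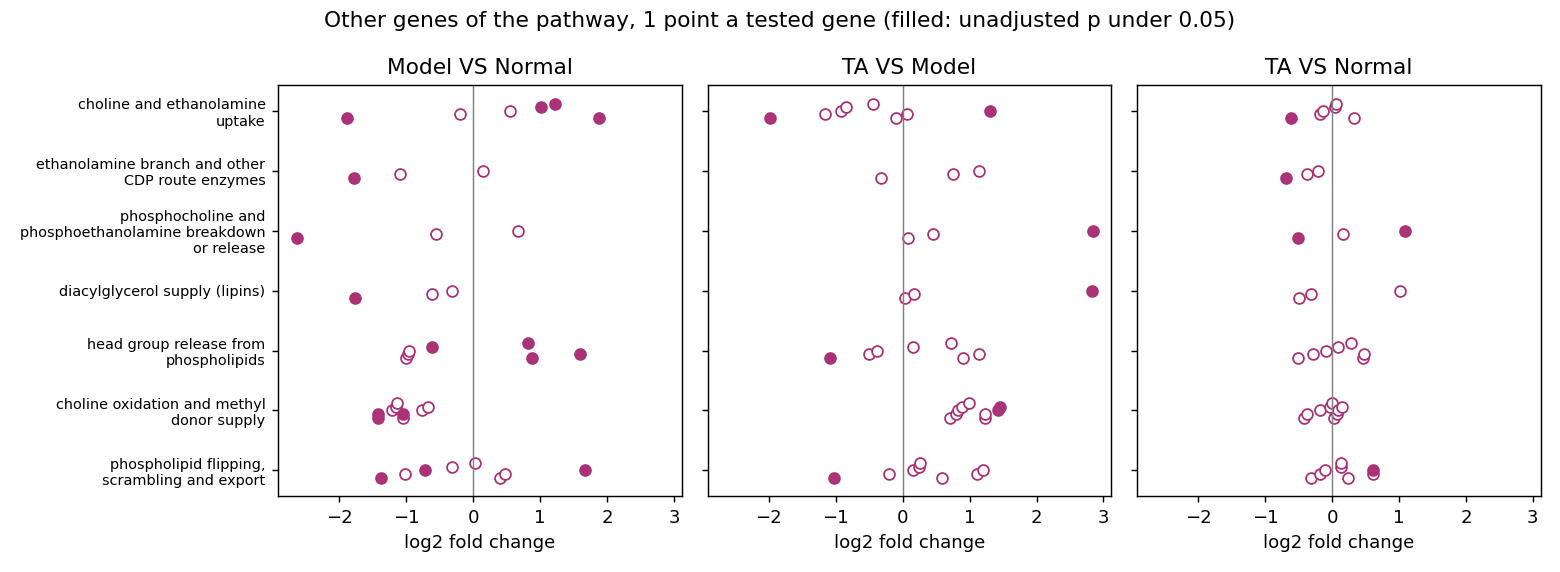
Log2 fold change (x axis) of each tested gene of the 7 lists around the head group pathway, 1 point a gene, in the 3 comparisons; filled points have an unadjusted p under 0.05. The choline oxidation genes all lie to the left of 0 in Model VS Normal and to the right in TA VS Model, with medians of -1.14 and 0.99.

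The genes with the nearest profiles over the 9 livers were sought among 7957 genes by the root mean square difference of centred log2 CPM. Pemt was nearest to Rbp4 (0.106), Asgr2 (0.109) and Atf5 (0.117), against a median of 0.843 over all genes compared. Ptdss2 was nearest to Ubap1 (0.101), Rptor (0.103) and Rtn3 (0.127), with a median of 0.430, and Cept1 to Sh2d4a (0.138), Smim14 (0.148) and Dpp4 (0.149), with a median of 0.606. The root mean square of a gene's own centred values was 0.853 for Pemt, 0.235 for Ptdss2 and 0.557 for Cept1. The distances of Ptdss2 were thus a larger part of its own variation than those of Pemt and Cept1.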

How the data were processed

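The authors extracted total RNA from liver, made poly(A) libraries, trimmed the reads, aligned them and counted reads per gene. Their methods name the human build hg19 and the submitters' processing notes name mm9, while the gene names are those of a rodent, so the build behind these counts is uncertain. Whether counting used strand is not given in the sources used here. The deposited tables hold raw counts per gene, FPKM, and a signal that is the count divided by a size factor, which no result used. The authors' own fold changes and p-values were in the tables and were not used. Counts were tested with edgeR 4.0.16 in R 4.3.3 (TMM, filterByExpr, quasi-likelihood F test, Benjamini-Hochberg over all tested genes, called at an adjusted p under 0.05), 3 livers against 3, on the genes in the table or, for TA VS Normal, in both tables (16730 genes). CPM printed here was scaled over all 9 livers, and groups are called apart on the CPM of the compared livers. DESeq2 1.42.0, limma 3.58.1, other scalings and filters, a replicate block and the removal of each rat were alternatives. The code was tested on simulated data. The members and lists were chosen with earlier results of these data known. The text names all 10 genes, the listed pathway genes with an unadjusted p under 0.05 (1 is counted but not reported here), and for Ptdss2, Cept1 and Pemt the 3 nearest profiles, while Etnk1 and Selenoi were named after their values were seen.

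The labels number the replicates in each group. In TA VS Normal, deviations from the group mean correlated at 0.258, 0.426 and 0.501 between same-numbered livers and at -0.189 on average between others. Deviations within a group cancel, so the last value is tied to the others. The numbers were taken to pair the livers from these counts alone, so the block fit is no independent check of the pairing. No 2 libraries of a group were alike within sampling noise (chi-square per gene of 39.3 to 400). The labels do not say that each library is a separate rat, so p-values measure the spread between these libraries, which may be in part technical. In the RefSeq annotation other genes overlap Cept1, Chpt1, Pemt, Chkb, Pcyt1a and Pisd, and reads of such genes cannot be told apart without strand.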

Additional observations from a re-analysis of the deposited data

How the results depend on the processing

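Limits: 3 rats a group, the first model library standing apart and unknown strand and build set the precision. In Model VS Normal the count of the 10 genes with an adjusted p under 0.05 was 0, and 1 with DESeq2 and 3 with limma voom; leaving out 1 rat gave 0 to 3, the 3 without the third model rat, where 19.3% of all genes had one in place of 7.87%. The count at an unadjusted p under 0.05 was 1, and 2 with library totals, DESeq2 or all 9 livers in 1 fit, 3 with limma voom or the replicate block, and 0 to 4 without 1 rat (0 without the third normal rat, 4 without the third model rat); all genes went from 28.9% to 33.3% with DESeq2, 40.7% with limma voom, 28.6% with the block and 35.5% without the third model rat. In TA VS Model the unadjusted count was 1, and 4 with DESeq2 or all 9 livers, 3 with limma voom or the replicate block, 0 with library totals or at least 10 counts in every library, and 0 to 4 without 1 rat (4 without the third model rat; 0 without the second model rat or the first or the second TA rat); all genes went from 15.6% to 19.6%, 27.2%, 17.3% and 24.9% in the same order. In TA VS Normal it was 1, and 2 with limma voom or the replicate block, 0 with all 9 livers, and 0 to 3 without 1 rat (0 without the first or the third normal rat, 3 without the third TA rat, with 14.3% of all genes in place of 9.43%). Cause was not tested for these moves.

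With library totals, Model VS Normal turned to 0.32 for Ptdss2, 0.12 for Cept1, 0.23 for Chka and 0.13 for Chkb, TA VS Model to -0.0011 for Ptdss2, -0.32 for Pcyt1a and -0.43 for Pisd, and TA VS Normal to 0.039 for Ptdss1 and 0.15 for Chkb; this scaling itself moves the median of all genes. With limma voom, Model VS Normal was -0.10 for Ptdss1 and -0.018 for Pcyt1a, and TA VS Model 0.0093 for Ptdss1 and -0.14 for Chkb. Leaving out 1 rat turned the sign of 7 values: in Model VS Normal Ptdss1 ran from -0.12 to 0.50, Chka from -1.20 to 0.25 and Pcyt1a from -0.16 to 0.37, in TA VS Model Chkb from -0.087 to 0.67 and Pisd from -0.059 to 0.28, and in TA VS Normal Ptdss1 from -0.37 to 0.084 and Chkb from -0.53 to 0.23. In Model VS Normal and TA VS Model the same-numbered livers did not all deviate together (correlations of -0.06 to 0.21 and -0.04 to 0.22), so the block there shares only a number; it named Chpt1, Pcyt2 and Pemt, and Chka, Chpt1 and Pcyt2. No block fit gave any of the 10 genes an adjusted p under 0.05.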

Other observations

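Same-numbered rats of different groups were at the same end of their groups for some of the 10 genes. The third rat was the highest of its group in all 3 groups for Pcyt2 and Chkb, a pattern shared by 9.15% of 12998 genes, and the lowest in all 3 for Ptdss1 and Pcyt1a, shared by 7.26%. The first rat was the lowest in all 3 groups for Chka and Pcyt2, shared by 6.31% of genes, and the highest for Ptdss1, shared by 8.30%. The labels do not say what a replicate number marks.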
